A study of Rattus norvegicus with 36 samples.

Results

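The rats compared here received decaBDE at 9.59 mg/kg or at 0.959 mg/kg, neighbouring doses in the middle of the range that was given. The comparison uses the 6 arrays titled for each of these doses, 12 of the 36 arrays in the series, and the 31042 of 31099 probe sets that are not array controls. Both groups were male Harlan Sprague Dawley rats, 7 weeks old at the start, on NTP-2000 diet. They were gavaged on 5 consecutive days with decaBDE in corn oil at 5 ml/kg, so the vehicle was common to both. The left liver lobe was taken the day after the last dose, and its RNA was hybridised to Affymetrix 3' expression arrays. Arrays of vehicle and of 0.1, 95.9 and 959 mg/kg, also 6 each, entered the same fit, where they share in the estimate of the spread. They also give the contrasts with vehicle and with neighbouring doses that are quoted for these genes. The labels number the arrays of a group but do not say that each came from a separate rat, so p-values measure the spread between these arrays.

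DecaBDE is the fully brominated diphenyl ether once used as a flame retardant. In rodent liver, many foreign lipophilic compounds act through the nuclear receptors CAR and PXR, which raise transcription of Cyp2b and Cyp3a P450s, conjugating enzymes and efflux pumps. Planar compounds act through the Ah receptor, whose classic targets are Cyp1a1 and Cyp1a2. The question of the comparison is which of these transcripts, if any, still differed when the dose moved from 0.959 to 9.59 mg/kg.

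The arrays carried the liver's own transcripts. The 14 measured hepatocyte markers had a mean log2 signal of 13.35 to 13.50 on the 0.959 mg/kg arrays and 13.38 to 13.48 on the 9.59 mg/kg arrays, and 9 exocrine pancreas markers stayed between 4.75 and 5.07. The 12 arrays correlated at 0.993 to 0.996, and their medians ran from 5.12 to 5.18. Replicates 3 and 4 at 0.959 mg/kg lay apart on the leading principal component (15% of the variance), at 19.1 and 23.7, while the other 10 arrays lay at or below 7.66. On the next component (13.3%), the group means were 5.93 at 0.959 mg/kg and -5.94 at 9.59 mg/kg (exact permutation test over 924 regroupings, two-sided p = 0.0779). The 3' minus 5' signal of the actin control averaged 1.225 and 1.204 (exact p = 0.723). In whole liver, fewer cells of a type and less RNA per cell cannot be told apart.

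No probe set was called higher at 9.59 than at 0.959 mg/kg (0% of 31042) and 1 was called lower (0.00322%), at an adjusted p under 0.05 from limma with Benjamini-Hochberg adjustment. At an unadjusted p under 0.05, 2366 probe sets (7.62%) differed, 1038 higher (3.34%) and 1328 lower (4.28%). The share of higher ones among both was 43.9%, but 58.4% once each array's median was subtracted, which turned 1328 lower into 994 and 1038 higher into 1396. All 6 arrays of a group lay beyond all 6 of the other for 51 probe sets upward (0.164%) and 70 downward (0.226%). The difference was above 0 for 49.7% of probe sets and below 0 for 50.3%. The median difference over all probe sets was -7e-04, and subtracting the medians moved it to 0.0129.

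The called probe set, 1395485_s_at, has no gene symbol in the annotation. Its log2 signal was 5.93, 6.00 and 6.21 (lowest, median and highest array) at 0.959 mg/kg and 5.20, 5.42 and 5.76 at 9.59 mg/kg. Every 9.59 mg/kg array lay below every 0.959 mg/kg array. The difference was -0.59 (SE 0.101, adjusted p = 0.0475). Its means in the other 4 groups lay between those of the compared groups, at 5.73 in vehicle, 5.79 at 0.1 mg/kg, 5.79 at 95.9 mg/kg and 5.78 at 959 mg/kg. In a fit of the 12 arrays alone its adjusted p was 0.145, and the call was also lost without any 1 of 10 of the 12 arrays, at adjusted p of 0.0563 to 0.271.

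**Figure D1:**
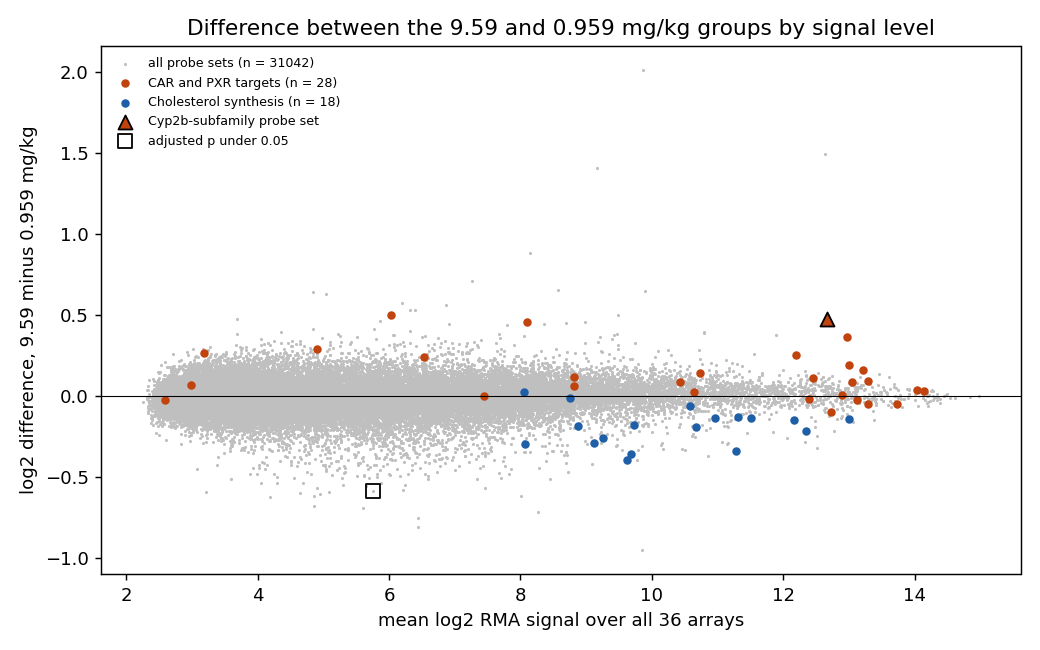
Log2 difference between the group means (9.59 minus 0.959 mg/kg) against the mean log2 signal over all 36 arrays, for 31042 probe sets. The 28 CAR and PXR targets reach from -0.09 to 0.50, the Cyp2b-subfamily probe set sits at 0.48, 17 of 18 cholesterol synthesis genes lie below 0, and the square marks the 1 called probe set at -0.59.

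The Cyp2b-subfamily probe set 1371076_at, which is assigned to several Cyp2b symbols and stands for the P450s that CAR induces most strongly, did not pass the test but separated the groups. Its log2 signal was 12.90, 12.99 and 13.26 at 0.959 mg/kg and 13.31, 13.57 and 13.71 at 9.59 mg/kg. All 6 arrays at 9.59 mg/kg were above all 6 at 0.959 mg/kg. The difference was 0.48 (SE 0.177), a 1.39-fold higher signal with a 95% interval of 1.09 to 1.79, and an adjusted p of 0.524. The fit over 36 arrays shares 1 spread between all groups, and the vehicle arrays of this probe set had an SD of 0.645 against 0.151 and 0.155 in the groups compared. In the 12 arrays alone the SE was 0.0844 and the adjusted p 0.31. Its mean was 10.96 in vehicle and 11.45 at 0.1 mg/kg, and it stood at 13.51 and 13.56 at 95.9 and 959 mg/kg.

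Of 35 listed targets of CAR and PXR, 28 were measured by a probe set with a single symbol. None was called (0 in either direction), 22 had a positive difference, and the median was 0.09 where all probe sets had -7e-04. Members of every list are the brightest probe sets of their genes, a class with a median of 0.0105 and 54.9% positive. At an unadjusted p under 0.05, 7 of the 28 were higher and 0 were lower. The shares were 3.34% and 4.28% of all probe sets, and 3.76% and 2.69% of the brightest. The 7 are named next. They were Ces2c, Ugt2b1, Abcc3, Aldh1a1, Ephx1, Cyp3a23-3a1 and Gadd45b. Subtracting array medians left 22 positive and repeating the quantile normalization over the 12 arrays left 21.

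Ces2c, a liver carboxylesterase that hydrolyses esters and amides, had the smallest p of the list. Its signal was 7.75, 8.10 and 8.20 at 0.959 mg/kg and 8.14, 8.42 and 8.94 at 9.59 mg/kg. The groups overlapped only at their edges, with 4 of 6 arrays at 9.59 mg/kg above every array at 0.959 mg/kg. The difference was 0.46 (SE 0.119, 1.38-fold, adjusted p = 0.277). Ugt2b1, which glucuronidates steroids and drugs, had 12.61, 13.05 and 13.28 at 0.959 mg/kg and 13.28, 13.34 and 13.49 at 9.59 mg/kg. For Ugt2b1 5 of 6 higher-dose arrays exceeded all lower-dose arrays, and the SD was 0.227 at 0.959 mg/kg against 0.0786 at 9.59 mg/kg. Its difference was 0.37 (SE 0.118, adjusted p = 0.439).

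Abcc3, the basolateral pump that exports glucuronides and bile salts to blood, was 5.50, 5.94 and 6.70 at 0.959 mg/kg and 5.98, 6.49 and 7.09 at 9.59 mg/kg. The ranges overlapped widely, and the difference of 0.50 (SE 0.183, 1.42-fold, adjusted p = 0.52) was the highest of the list. Cyp3a23-3a1, the PXR-responsive P450, was 13.09, 13.26 and 13.36 against 13.27, 13.41 and 13.57. That gave 0.16 (SE 0.0651, adjusted p = 0.574), with 5 of 6 higher-dose arrays above the whole lower-dose group. Ephx1, microsomal epoxide hydrolase, differed by 0.19 (SE 0.0702, adjusted p = 0.521), Aldh1a1, a retinal dehydrogenase, by 0.25 (SE 0.09, adjusted p = 0.512), and Gadd45b by 0.29 (SE 0.129, adjusted p = 0.601). The canalicular pump Abcc2 differed by 0.09 (SE 0.0876), and Gstm1, a glutathione transferase, by 0.10 (SE 0.0605).

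The promoters of Ces2c and Cyp3a23-3a1 are shown as those of the enzyme with the smallest p of the list and of the classic PXR target. Cyp3a23-3a1 was picked in part because the hexamers that CAR and PXR dimers read occur there, so its matches are no evidence about the list. Each run holds the 250 bases before the RefSeq gene start (build GRCr8), 5′ to 3′ on the gene's strand, with AGGTCA and AGTTCA in capitals on either strand. Ces2c lies on chromosome 1 (chr1:270376951-270377200, plus strand) and Cyp3a23-3a1 on chromosome 12 (chr12:14398804-14399053, minus strand).
Ces2c: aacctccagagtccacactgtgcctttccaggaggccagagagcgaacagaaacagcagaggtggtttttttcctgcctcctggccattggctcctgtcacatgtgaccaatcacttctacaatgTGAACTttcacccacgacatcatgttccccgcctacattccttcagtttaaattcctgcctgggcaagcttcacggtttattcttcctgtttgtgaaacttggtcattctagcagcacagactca
Cyp3a23-3a1: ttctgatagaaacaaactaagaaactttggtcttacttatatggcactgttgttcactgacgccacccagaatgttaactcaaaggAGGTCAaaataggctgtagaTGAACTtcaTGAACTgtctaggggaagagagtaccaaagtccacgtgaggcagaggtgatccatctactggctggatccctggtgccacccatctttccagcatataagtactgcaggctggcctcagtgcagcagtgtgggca
Cyp3a23-3a1 holds 3 matches, of which a pair of AGTTCA on the opposite strand is 3 bases apart, and Ces2c holds 1. AGGTCA occurs in 8 of 25 promoters of the measured list (32%) and in 13.7% of 27457 promoters in the table, and AGTTCA in 11 of 25 (44%) and 12.1%. A match describes letters only and is not a measured binding site.

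The other 21 measured CAR and PXR targets did not reach an unadjusted p under 0.05, and their precision varied. Por, the reductase that feeds electrons to P450s, was 8.92 (SD 0.147) and 8.98 (SD 0.15), a difference of 0.06 with a 95% interval of -0.15 to 0.27. Cyp2c6v1, an abundant liver P450, was 14.07 and 14.12, with an interval of -0.05 to 0.13. Alas1, the rate-limiting enzyme of heme synthesis, differed by 0.03 with an interval of -0.33 to 0.39, the wide limits of a gene whose 0.959 mg/kg arrays ran from 10.31 to 11.23. Cyp3a9 was 8.82 (SD 0.83) and 8.94 (SD 0.515), a difference of 0.12 with an interval of -0.53 to 0.76. Gstm3, a glutathione transferase, differed by 0.24 (SE 0.128) and Akr1b7, an aldose reductase, by 0.27 (SE 0.184), while Akr1b7, Cyp2b12 and Sult2a1 had group means under 3.4. Both shared Ugt1a probe sets differed by 0.03 (SE 0.0492) and 0.01 (SE 0.0538).

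**Figure D2:**
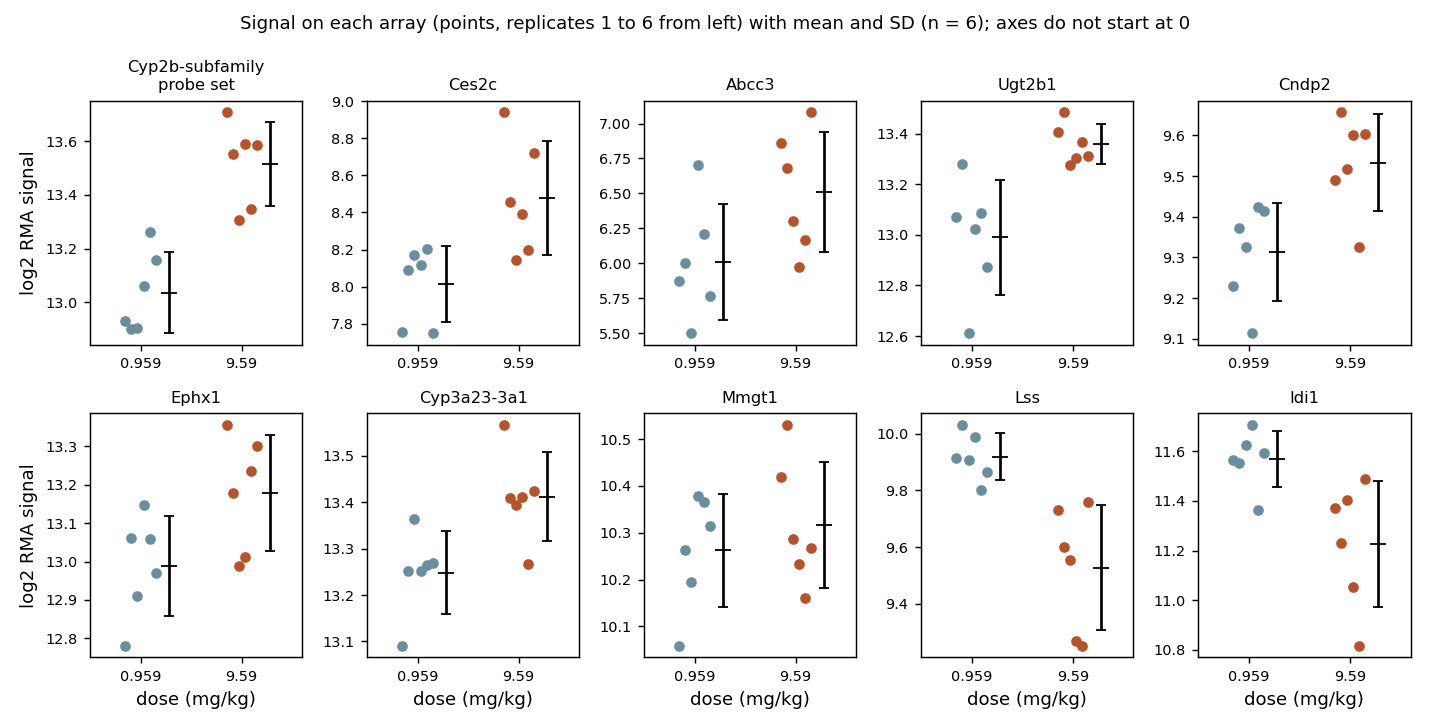
Log2 RMA signal of 10 probe sets on each of the 6 arrays at 0.959 and at 9.59 mg/kg, with the mean and SD of each group. The groups separate completely for the Cyp2b-subfamily probe set and, downward, for Lss, and overlap for the other 8.

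A set of induced transcripts can be chosen from 959 mg/kg against vehicle, a difference of means that leaves out the arrays compared here. The spread of the compared arrays still entered the choice, since the fit shares its spread between all groups. The unadjusted p-values below rest on the same shared spread. At 959 mg/kg against vehicle, 32 probe sets were called higher (0.103% of all) and 2 were called lower (0.00644%). Of the 32, 30 had a positive difference between 9.59 and 0.959 mg/kg, with a median of 0.06, and 11 had an unadjusted p under 0.05, but 0 were called. Only the Cyp2b-subfamily probe set among them had groups that did not overlap. Of all probe sets, 49.7% had a positive difference, 7.62% had an unadjusted p under 0.05 and 0.39% had groups that did not overlap. Choosing instead, with the same shared spread, the 15 probe sets called higher at 95.9 than at 0.1 mg/kg (0.0483%), 14 were positive. Their median was 0.19.

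The induced genes differed in the size of the step. Cndp2, a cytosolic dipeptidase, was 9.11, 9.35 and 9.42 at 0.959 mg/kg and 9.32, 9.56 and 9.66 at 9.59 mg/kg, with 5 of 6 arrays above the lower group. The difference was 0.22 (SE 0.0741, adjusted p = 0.464). Mmgt1, a membrane magnesium transporter, was 10.26 (SD 0.121) and 10.32 (SD 0.135), and Stbd1, a glycogen-binding protein, was 10.28 (SD 0.128) and 10.33 (SD 0.195). Each differed by 0.05, with 95% intervals of -0.10 to 0.20 and -0.13 to 0.24. A second called Mmgt1 probe set differed by 0.14 (SE 0.0938). App, the amyloid precursor protein, was named after its values were seen, and its 3 called probe sets differed by 0.22, 0.17 and 0.03. Vav2, a guanine nucleotide exchange factor also named after its values were seen, differed by 0.28 (SE 0.0769) and 0.11 (SE 0.0919) at the probe sets called at 959 mg/kg. A further Vav2 probe set, called at 95.9 against 0.1 mg/kg, differed by 0.26 (SE 0.0951).

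Against vehicle, 9 probe sets were called higher at 0.959 mg/kg (0.029%) and 33 at 9.59 mg/kg (0.106%), where 3 were also called lower (0.00966%). At 95.9 mg/kg 26 were called higher (0.0838%), and all these counts share the vehicle arrays. At 0.959 mg/kg the Cyp2b-subfamily probe set was already 2.07 above vehicle (adjusted p = 3.32e-09), and at 9.59 mg/kg it was 2.55 above (adjusted p = 7.55e-12). Ces2c was 0.48 above vehicle at 0.959 mg/kg (adjusted p = 0.352) and 0.95 above at 9.59 mg/kg (adjusted p = 1.52e-05). Abcc3 was 0.78 above (adjusted p = 0.259) and then 1.28 above (adjusted p = 0.000126). Cndp2 was 0.36 above (adjusted p = 0.0826) and 0.58 above (adjusted p = 1.91e-05). For Mmgt1 the values were 0.54 (adjusted p = 0.000251) and 0.59 (adjusted p = 1.46e-05). A gene that passed at the higher dose and not at the lower is not thereby shown to differ between them, since the direct contrast called none of these.

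Whether a dose step differed from its neighbours was tested with the difference of differences. The step from 0.959 to 9.59 mg/kg minus the step from 0.1 to 0.959 mg/kg called 0 probe sets, with 1741 (5.61%) at an unadjusted p under 0.05. The step from 9.59 to 95.9 mg/kg minus this step also called 0, with 2315 (7.46%). Without the 9.59 mg/kg replicate 5 or 6 the second of these tests called 9 or 17 probe sets. The Cyp2b-subfamily probe set had -1.11 in the former test (adjusted p = 0.755).

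**Figure D3:**
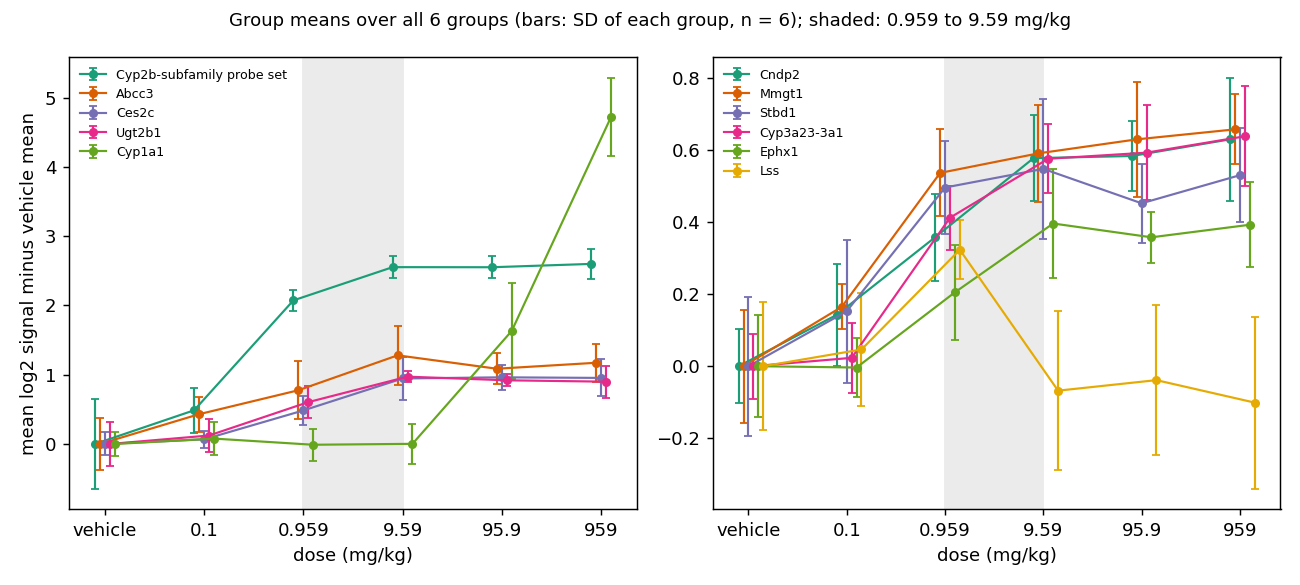
Mean log2 signal of each group minus the vehicle mean, with the SD of each group, for 11 probe sets in 2 panels; the grey band spans 0.959 to 9.59 mg/kg. Within the band the Cyp2b-subfamily probe set goes from 2.07 to 2.55, Abcc3 from 0.78 to 1.28 and Lss from 0.32 to -0.07, while Cyp1a1 stays near 0.

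Transcripts of the Ah receptor pathway showed no detectable difference. Cyp1a1 was 4.45, 4.602 and 5.01 at 0.959 mg/kg and 4.29, 4.72 and 5.11 at 9.59 mg/kg, so the higher group held both the lowest and the highest array. The difference was 0.01 (SE 0.222) with an interval of -0.44 to 0.46, and its mean reached 6.32 at 95.9 mg/kg and 9.41 at 959 mg/kg. Cyp1a2 was 13.21 (SD 0.0724) and 13.22 (SD 0.0652), an interval of -0.10 to 0.12. Ahr itself was 5.38 and 5.37, and 6 of the 10 listed targets were positive with a median of 0.01 (5 of 10 after repeated quantile normalization, and a median of -0.0066 to 0.0454 over single omissions). The CAR, PXR and partner genes numbered 14 and split 7 to 7, with Hsp90ab1, a chaperone of these receptors, at -0.28 (SE 0.131, adjusted p = 0.63). Its other probe set was at 0.04 (SE 0.0827).

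Cholesterol synthesis genes leaned to lower signal at 9.59 mg/kg. Of 18 measured members 0 were called, 17 were negative and the median was -0.18. At an unadjusted p under 0.05, 6 were lower, beside 4.28% of all probe sets, and 0 were higher. Subtracting array medians left 16 negative, and over single omissions of an array the number ran from 15 to 18. Without 9.59 mg/kg replicate 5 the median was -0.12. Lss, lanosterol synthase, had 9.80, 9.91 and 10.03 at 0.959 mg/kg and 9.25, 9.58 and 9.76 at 9.59 mg/kg. All 6 arrays of the higher dose lay below the lower-dose group. The difference was -0.39 (SE 0.104, adjusted p = 0.325), and its other probe set had -0.47 (SE 0.126, 5 of 6 arrays below).

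Idi1, the isopentenyl diphosphate isomerase, was 11.37, 11.58 and 11.71 at 0.959 mg/kg and 10.81, 11.30 and 11.49 at 9.59 mg/kg. The ranges met, with 3 of 6 arrays below the lower-dose group, and the difference was -0.34 (SE 0.125, adjusted p = 0.521). A second Idi1 probe set had -0.37 (SE 0.118), with all 6 arrays below. The other members under the unadjusted threshold, named after their values were seen, were Cyp51, lanosterol demethylase, at -0.22, Mvd, mevalonate diphosphate decarboxylase, at -0.30, Hsd17b7, a sterol ketoreductase, at -0.29, and Acat2, the first enzyme of the route, at -0.36. Srebf2, which encodes the transcription factor that drives the pathway, differed by 0.02 (SE 0.0642), and Insig1, its retention partner, by -0.13 with SDs of 0.493 and 0.46.

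Against vehicle, the list's median was 0.24 at 0.959 mg/kg with 18 of 18 positive and 0.03 at 9.59 mg/kg with 13 of 18 positive. Both of those comparisons use the same vehicle arrays, and each uses arrays of the step itself. Lss had means of 9.60 in vehicle, 9.64 at 0.1 mg/kg, 9.56 at 95.9 mg/kg and 9.49 at 959 mg/kg, against 9.92 at 0.959 mg/kg and 9.53 at 9.59 mg/kg. Its difference of differences from the step below was -0.67 (adjusted p = 0.755).

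The upstream bases of Lss and Idi1 are shown because these genes had the smallest p of the list. The capitals mark CCAAT on either strand, a box found beside sterol elements in this pathway, and the sterol core CACCCCAC was searched as well. Lss lies on chromosome 20 (chr20:12118231-12118480, minus strand) and Idi1 on chromosome 17 (chr17:66547525-66547774, minus strand), build GRCr8 from RefSeq, 250 bases before the start, 5′ to 3′.
Lss: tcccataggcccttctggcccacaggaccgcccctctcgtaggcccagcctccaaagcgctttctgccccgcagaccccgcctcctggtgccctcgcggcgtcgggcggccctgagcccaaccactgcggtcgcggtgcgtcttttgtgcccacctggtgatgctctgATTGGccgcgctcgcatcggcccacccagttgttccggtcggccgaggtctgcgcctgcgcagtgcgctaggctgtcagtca
Idi1: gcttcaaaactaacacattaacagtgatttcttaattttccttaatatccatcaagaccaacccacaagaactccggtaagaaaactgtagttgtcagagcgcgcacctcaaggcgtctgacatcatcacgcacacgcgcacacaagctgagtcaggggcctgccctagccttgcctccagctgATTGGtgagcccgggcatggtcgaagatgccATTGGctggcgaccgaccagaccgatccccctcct
CCAAT occurs in 11 of the 14 list promoters in the table (78.6%) and in 34.3% of 27457 promoters, with 1 match in Lss and 2 in Idi1. It is not particular to this list, since 19 of 25 cell cycle promoters (76%) and 14 of 25 CAR and PXR promoters (56%) hold it. CACCCCAC is in 0 of the 14 and in 2.24% of all, which says only that these letters are not in these windows.

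Cell cycle genes leaned the same way. Of 33 measured members 0 were called, 31 were negative and the median was -0.15. At an unadjusted p under 0.05, 4 were lower, beside 4.28% of all probe sets, and 0 were higher. Against vehicle, the list's median was 0.24 at 0.959 mg/kg with 27 of 33 positive. At 9.59 mg/kg it was -0.01 with 16 of 33 positive, against the same vehicle arrays. Plk1, the mitotic kinase, was 6.21, 6.34 and 6.46 at 0.959 mg/kg and 5.91, 6.15 and 6.28 at 9.59 mg/kg, a difference of -0.20 (SE 0.0878, adjusted p = 0.602). The groups overlapped, with 4 of 6 higher-dose arrays below all others. Aurkb, the chromosomal passenger kinase, was 4.19, 4.69 and 5.34 against 4.05, 4.33 and 4.55, where the 0.959 mg/kg arrays spread over more than a log2 unit. Its difference was -0.42 (SE 0.189, adjusted p = 0.608). Without 0.959 mg/kg replicates 3 and 4 and the 9.59 mg/kg replicate 4, an omission chosen after the data were seen, the list's median was -0.02 and 10 members were positive. Without 0.959 mg/kg replicate 3 alone it was -0.10.

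Chaperones of the cytosolic heat shock response numbered 11, of which 7 were negative with a median of -0.10, or -0.04 without 0.959 mg/kg replicate 3. Hsph1, an Hsp110 co-chaperone, was 8.69, 9.04 and 9.16 against 8.34, 8.63 and 8.86, with 4 of 6 higher-dose arrays below the lower group. The difference was -0.36 (SE 0.114, adjusted p = 0.436), and its second probe set had -0.37 (SE 0.141). Abcg5 and Abcg8, the paired subunits of the sterol exporter into bile, had the largest differences of any list, at -0.71 (SE 0.272, adjusted p = 0.551) and -0.75 (SE 0.274, adjusted p = 0.52). Abcg8 was 5.84, 6.57 and 7.19 at 0.959 mg/kg and 5.30, 5.48 and 7.07 at 9.59 mg/kg, so 4 arrays of the higher group were low and at least 1 was as high as the other group.

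The macrophage, interferon and stellate cell lists leaned upward from 0.959 to 9.59 mg/kg without a call. Other immune lists did not share this lean. Of 16 lymphocyte markers 9 were positive with a median of 0.03, and of 9 neutrophil markers 2 were positive with a median of -0.09. Against vehicle, the macrophage median was -0.47 at 0.959 mg/kg and -0.30 at 9.59 mg/kg, and the interferon median -0.26 and -0.15. The macrophage and interferon medians thus lay below vehicle at both doses, while the stellate median lay above, at 0.06 and 0.15. These contrasts share the vehicle arrays. Of 25 interferon response genes 22 were positive with a median of 0.13. Of 12 macrophage and Kupffer cell markers 11 were positive with a median of 0.16. The markers with the smallest p were Lyz2, the only negative one, at -0.33 (SE 0.219), and Mrc1 at 0.13 (SE 0.0954). The Kupffer lectin Clec4f, named outside the rule of smallest p, was at 0.21 (SE 0.262). The mean log2 signal over the macrophage list ran from 8.21 to 8.83 on the 0.959 mg/kg arrays and from 8.26 to 8.91 on the 9.59 mg/kg arrays, which nearly coincide. The interferon list ran from 6.63 to 7.69 and from 6.81 to 7.92. At an unadjusted p under 0.05, 0 interferon genes were higher and 1, Ifit1, was lower (-0.19, SE 0.0853). Of 16 stellate cell and fibroblast markers 14 were positive with a median of 0.09. Leaving out 0.959 mg/kg replicates 3 and 4 turned the interferon median to -0.09, with 7 positive, so the direction of that list rested on those 2 arrays. Over single omissions the interferon median ran from 0.03 (without 0.959 mg/kg replicate 4) to 0.24 (without 9.59 mg/kg replicate 3). The macrophage median was 0.0025, with 6 of 12 positive, without 0.959 mg/kg replicates 3 and 4 together, and 0.09 without replicate 4 alone. The stellate median was 0.04 without 0.959 mg/kg replicate 2. The part of cell makeup in the other lists was not tested.

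Most liver functions stayed close to the median of all probe sets. The 27 oxidative phosphorylation subunits ran from -0.06 to 0.10 with a median of -0.01, and 14 hepatocyte markers had a median of -0.01. PPARA targets and fatty acid oxidation genes numbered 28, with 13 positive and a median of -0.02, which ran from -0.05 (without 0.959 mg/kg replicate 2) to 0.015 (without 9.59 mg/kg replicate 4) and was 0.04 without 0.959 mg/kg replicates 3 and 4. NRF2 targets numbered 18, with 12 positive and a median of 0.03 (9 positive and -2e-04 without 0.959 mg/kg replicate 1), the largest being Ephx1. Of 14 thyroid hormone genes 9 were positive. At an unadjusted p under 0.05, 3 were higher, beside 3.34% of all probe sets, and 0 were lower. One was Ugt2b1, which is already counted among the CAR and PXR targets. Another was Hr, a corepressor of the thyroid hormone receptor, at 0.26 (SE 0.087). Dio1 and Thrsp, direct thyroid hormone targets, had 0.03 and -0.28 (SE 0.083 and 0.219). The 13 periportal markers had a median of -0.03 with 5 positive, or 6 positive under either other scaling, and without 9.59 mg/kg replicate 3 the median was 0.0058. The members with the smallest p, Cps1 and Arg1 of the urea cycle, had -0.14 (SE 0.0564) and -0.16 (SE 0.0646). Cps1 was 13.31, 13.41 and 13.44 against 13.17, 13.25 and 13.32, with 4 of 6 arrays below the lower group.

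**Figure D4:**
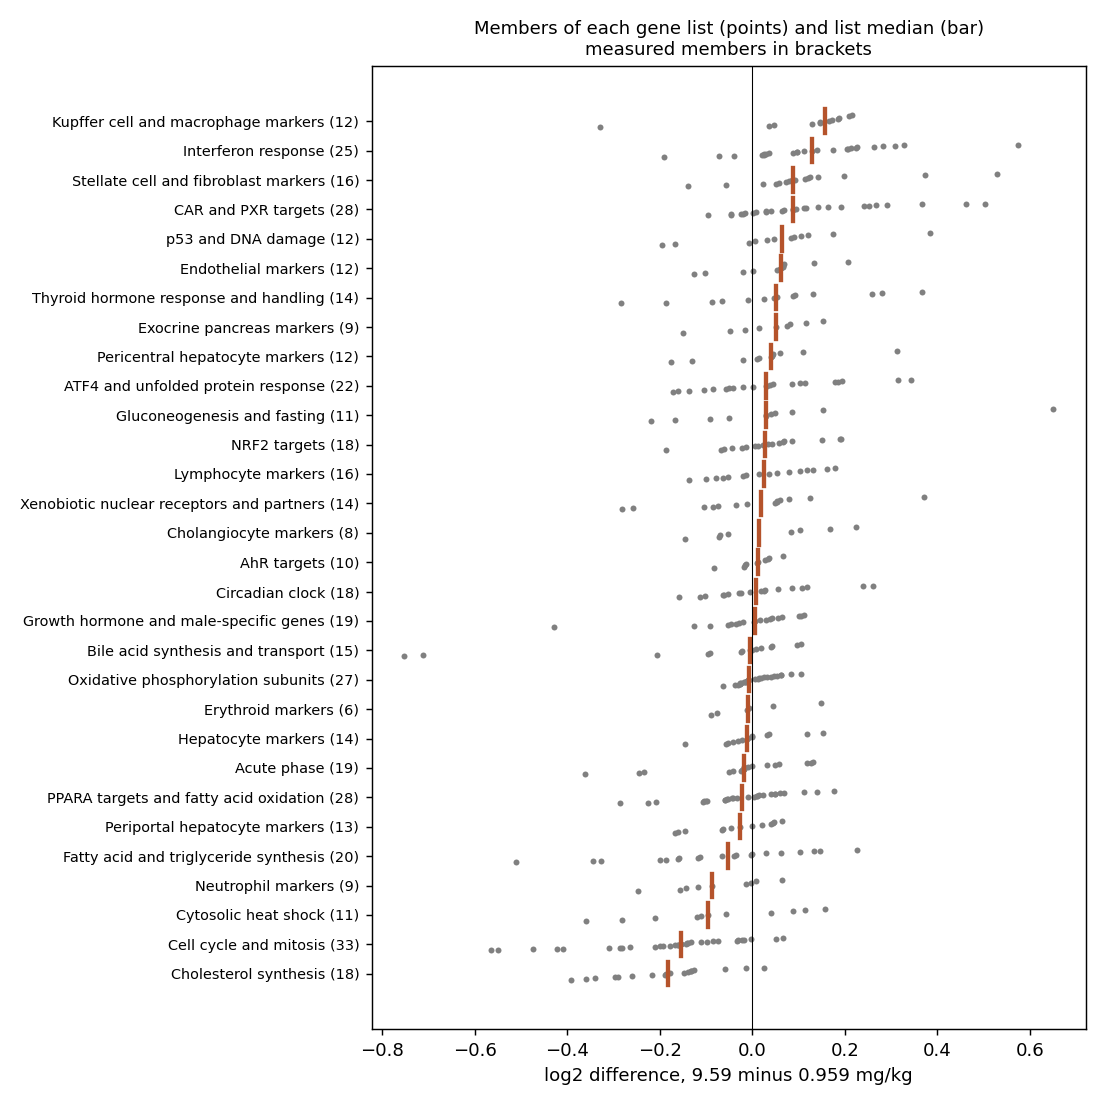
Log2 difference (9.59 minus 0.959 mg/kg) of each measured member of 30 gene lists, with the list median as a bar. Medians run from -0.18 for cholesterol synthesis to 0.16 for macrophage markers (0.0025 without 0.959 mg/kg replicates 3 and 4), and no member of any list was called.

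By rule the genes with the smallest p in each direction are also given. Upward, these were Wipf3, Btbd2, Ncr3, Prdx3, Adam33, C2cd4b, Plcg2 and Mknk1, with differences of 0.16 to 0.32 and adjusted p between 0.148 and 0.257. Wipf3, an actin regulator, was 4.27, 4.42 and 4.56 against 4.58, 4.74 and 4.83, with no overlap, but its second probe set had -0.07 (SE 0.0851). Btbd2 was 7.07, 7.18 and 7.26 against 7.38, 7.43 and 7.59, also without overlap, and its second probe set had 0.04 (SE 0.0662). Prdx3, a mitochondrial peroxiredoxin, was 10.18, 10.28 and 10.36 against 10.35, 10.43 and 10.54, and its 0.16 (SE 0.0385, adjusted p = 0.183) was called in a fit without variance moderation (adjusted p = 0.0203).

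Downward, Heatr1, which acts in ribosome biogenesis, had 6.53, 6.60 and 6.86 at 0.959 mg/kg and 6.12, 6.33 and 6.37 at 9.59 mg/kg. Its groups did not overlap and the difference was -0.36 (SE 0.0732, adjusted p = 0.0854). Hars1, the histidyl-tRNA synthetase, was 7.86, 8.00 and 8.08 against 7.57, 7.67 and 7.83, again without overlap. Its difference was -0.29 (SE 0.0659, adjusted p = 0.148), and its second probe set had -0.26 (SE 0.0865). Neto1, Zyg11b, Tubgcp3, Neto2, Lss and LOC102552219 followed, from -0.22 to -0.39. Of these, Neto1 (means of 2.55 and 2.32) and LOC102552219 (3.08 and 2.85) lay near the floor of the signal range, which began at 2.02. Adamts8, a secreted protease among the followed genes, was 2.95, 3.09 and 3.16 against 2.76, 2.88 and 2.91, also near that floor. Its difference was -0.21 (SE 0.0661, adjusted p = 0.439).

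Where a gene has several probe sets, the dimmer ones were more often lower at 9.59 mg/kg than the brightest ones were. The 6609 dimmer probe sets of 4525 genes had a median difference of -0.03 (median against the brightest probe set of the gene -0.0301, or -0.0197 without 9.59 mg/kg replicate 2), and 529 of them (8%) were lower at an unadjusted p under 0.05 while 184 were higher. The 14217 brightest probe sets had 383 lower (2.69%) and 534 higher (3.76%). With array medians subtracted these became 423 lower and 248 higher for the dimmer and 266 lower and 714 higher for the brightest. A dimmer probe set lay below the brightest one of its gene in 59.8% of cases, against 47.3%, 49.5%, 44.9% and 45.4% in the other 4 steps of the series, of which the middle pair share arrays with this one. Without single arrays the share ran from 56.4% to 61.5%, the lowest without 9.59 mg/kg replicate 2, where 432 were lower and 207 higher. Of the 529, the brightest probe set of the gene was also lower at that threshold in 27, beside 2.69% of all brightest ones, and its difference was negative in 301. The brightest probe sets paired with the 529 had a median difference of -0.0121, against 0.0051 for those paired with all 6609.

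Examples were taken by smallest p after their values were seen. Snrpd1, a core spliceosome protein, had -0.48 (SE 0.0948, adjusted p = 0.0854) at its dimmer probe set, with 6.48 (SD 0.192) and 6.00 (SD 0.238), and 0.01 (SE 0.11) at its brightest. Prkd3, a protein kinase D, had -0.50 (SE 0.102) and 0.02 (SE 0.0729). Immt, a mitochondrial inner membrane organiser, had -0.38 (SE 0.0793) and 0.00 (SE 0.0412). Both dimmer probe sets of Ahcyl1 had -0.34 and -0.35, where the brightest had -0.02 (SE 0.0545). The median of dimmer minus brightest signal was -0.03, -0.08 and -0.02 on 9.59 mg/kg replicates 1, 2 and 3, and 0.02 on replicate 4, so the arrays of that group spread more (SD 0.038) than those at 0.959 mg/kg (SD 0.0161). The Gapdh control's 3' minus 5' signal was highest on replicates 1 and 2 of the 9.59 mg/kg group, at 0.02 and 0.05, and the group means were -0.03 and -0.07 (exact permutation p = 0.139). Its part in the difference between probe sets was not tested.

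**Figure D5:**
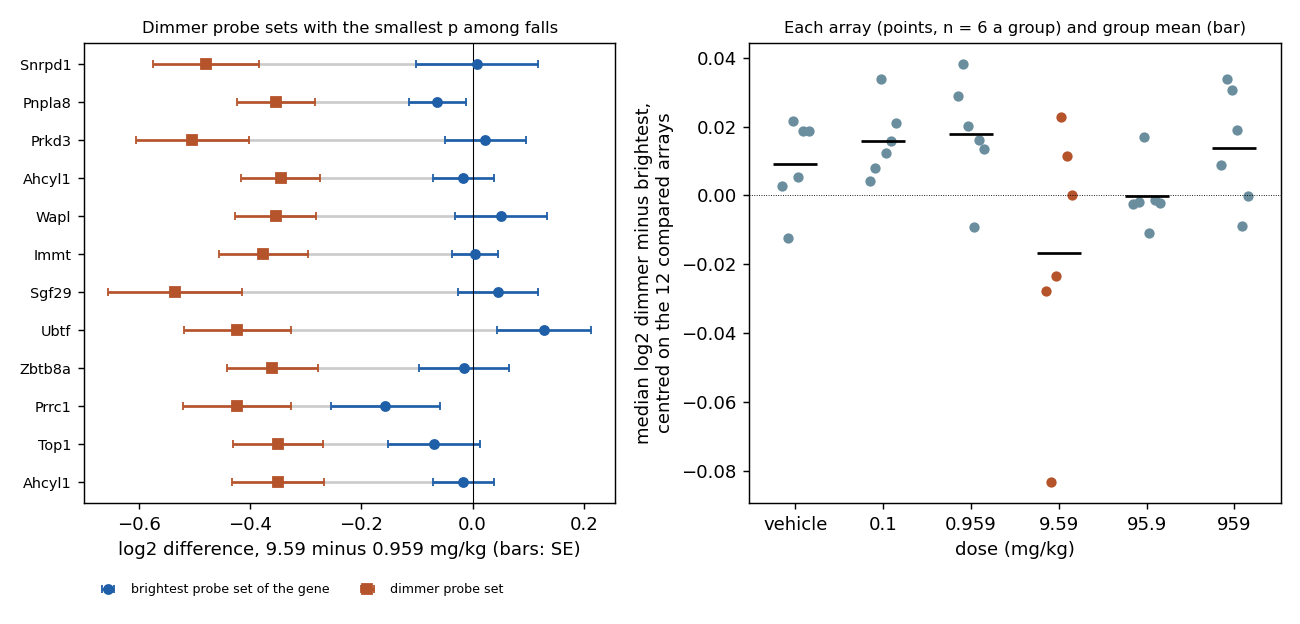
Left: log2 difference (9.59 minus 0.959 mg/kg, with SE) of 12 dimmer probe sets and of the brightest probe set of the same gene. Right: median of dimmer minus brightest log2 signal on each array of the 6 groups, with the group mean, where the 9.59 mg/kg arrays run from -0.08 to 0.02 and the 0.959 mg/kg arrays from -0.01 to 0.04.

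The number of arrays limits what this comparison can show. The median SE of a difference was 0.0805, and the median absolute difference 0.0617. For 97.4% of probe sets the 95% interval lay within 1.5-fold in either direction, for 64.3% within 1.2-fold and for 99.7% within 2-fold. Differences above 0.5 in size were found at 48 probe sets, 15 up and 33 down, none of which was called apart from 1395485_s_at. The largest of all, 2.01 at the unnamed probe set 1368718_at, had an SE of 1.32, since 2 arrays at 0.959 mg/kg and 1 at 9.59 mg/kg read under 5 and the rest above 10.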

How the data were processed

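Per the submitters' processing notes, the authors computed the deposited log2 values by RMA in the affy package. The version and build are not given in the sources used here. All 36 columns were used (0 unmapped), with groups read from the titles. Of 31099 probe sets, 57 controls were left out. The platform annotation gave 1 symbol to 20826, several to 436 and none to 9780. The RefSeq table held 20758 of the gene IDs, and 0 symbols differed. Each gene was represented by its brightest probe set over all arrays (14217 genes).

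A limma model (version 3.58.1, R 4.3.3) with a mean for every group was fitted over 36 arrays and moderated with eBayes, giving 30 residual and 5.12 prior degrees of freedom. The contrast was 9.59 minus 0.959 mg/kg, two-sided, with Benjamini-Hochberg adjustment over 31042 probe sets and a threshold of 0.05. The design text names maanova, which could not be run here. Errors are limma SEs, or SDs over 6 arrays, and intervals are at 95%. The procedure was tested on simulated data.

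Named by rule were the 8 genes of smallest p in each direction, at most 2 of smallest p from every list, and 24 followed genes whatever their values. Not all of these are described above. Of the followed genes left out there, Ak4, Pemt and Prnp differed by -0.09, -0.07 and 0.15. Some list members are described outside the rule, among them Aldh1a1, Gadd45b, Gstm1, Gstm3, Akr1b7, Srebf2 and Insig1. Probe sets with several symbols gave no gene name. The comparison, the 30 gene lists and the followed genes were chosen with earlier results of these data known. Lists are described by counts and medians, with no test. Alternatives were other scalings, spreads, filters and omitted arrays. Leaving out 0.959 mg/kg replicates 3 and 4, with or without 9.59 mg/kg replicate 4, was added after seeing the data. Promoters came from RefSeq (GRCr8), and motifs were searched as exact letters on both strands.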

Additional observations from a re-analysis of the deposited data

Results flagged for a closer look

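In 4 of 190 groups of 6 arrays tested, over the named genes, a single array lay farther from the others than Dixon's 95% limit allows, and chance alone gives about 1 in 20. All 4 are 0.959 mg/kg arrays. Heatr1 read 6.86 on replicate 4, where the nearest array was at 6.63, which raised the mean of the group that was already the higher one. Replicate 1 gave the other 3. Sesn2, a stress-response gene, read 6.84 there with the next at 7.10. Slc1a4, an amino acid transporter, read 5.23 with the next at 5.80. Ifit1, an interferon-induced gene, read 6.03 with the next at 5.76. The difference of Ifit1 is opposite in sign to that of most of its list.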

How the results depend on the processing

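The single fall was called in few settings. The count of falls was 0 with only the 12 arrays, with array medians subtracted, with quantile normalization repeated, and in both settings added after seeing the data. It was also 0 with the brightest probe set per gene, which cannot hold the called probe set since that has no symbol. It was 2 with array weights, 2 without variance moderation (which also gave 1 rise), and 6 when the spread was shared without the 0.1 mg/kg array that stood apart. With the replicate number as a block it was 0 over 36 arrays and 0 over 12, and no other call changed. Between the compared groups, arrays of the same number did not deviate together (correlations of -0.17 to 0.0121, and 0 of 6 best matched their own number). The labels do not say what a shared number stands for, and these correlations cannot show it. Leaving out each array gave 0 to 2 falls and 0 rises. The adjusted p of 1395485_s_at reached 0.597 with the replicate block over 12 arrays. Hars1 was called (-0.29, adjusted p = 0.0453) in the setting without the 0.1 mg/kg array.

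Without single arrays, 81 to 117 probe sets did not overlap upward and 96 to 162 downward. With array medians subtracted these were 76 and 47. In the added settings they were 210 and 262, then 403 and 540, with fewer arrays to separate. The second differences called 0 to 2 and 0 to 17. The median of induced probe sets was 0.06 with those of 959 mg/kg against vehicle and 0.1911 with those of 95.9 against 0.1 mg/kg.

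Of 2352 gene values, 2301 kept direction and side of the threshold and 32 changed sign. By setting these were Cyp1a2 (-0.0326, repeated quantile normalization), Aldh3a1 (-0.011 and -4e-04), Dio1 (-0.0251 and -0.0577) and Np4 (0.0113). Without single arrays the ranges were Ahr -0.1369 to 0.0873, Alas1 -0.0408 to 0.1424, Cyp1a1 -0.0705 to 0.0937, Cyp1a2 -0.0054 to 0.0332, Sult2a1 -0.066 to 0.0178, Cyp3a9 -0.1615 to 0.2629, Slc1a2 -0.0567 to 0.0845, Dio1 -0.0064 to 0.0966, Aldh3a1 0.0111 to 0.1086 and Np4 -0.2267 to -0.0944. The other settings took Cyp1a2 up to 0.0455, Cyp3a9 to 0.4164 and Alas1 to 0.3462, all without 0.959 mg/kg replicates 3 and 4 and 9.59 mg/kg replicate 4. All 747 list medians moved by less than 1 SD of the list's score. That limit is wide, since the SD was 0.404 for the interferon list and 0.244 for the macrophage list. A median could therefore change sign within it, as the interferon median did in both added settings. Medians near 0 also changed sign in some settings, among them those of AhR targets (down to -0.014), PPARA targets (up to 0.0519) and clock genes (down to -0.0149). The number of arrays limits the precision.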

Other observations

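Some differences were wide because single arrays read very low. The Ugt2b probe sets 1387825_at and 1385247_at read 4.70 and 3.59 on 0.959 mg/kg replicate 3, where the other 11 arrays read 13.00 to 13.50 and 8.76 to 10.20. Their differences of 1.49 (SE 1.24) and 1.41 (SE 0.996) rest on that array. These probe sets were named after their values were seen.

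Of metabolic genes outside the results above, Igfbp1, an insulin-repressed binding protein, was 9.0003, 9.50 and 10.34 at 0.959 mg/kg and 9.68, 10.07 and 10.83 at 9.59 mg/kg, a difference of 0.65 (SE 0.306, adjusted p = 0.638). Its mean in vehicle was 10.22, close to 10.23 at 9.59 mg/kg. Acss2, which makes acetyl-CoA from acetate, had -0.33 (SE 0.124, adjusted p = 0.551), and Mlxipl, the glucose-responsive transcription factor, had 0.23 (SE 0.0896, adjusted p = 0.574). The 18 clock genes split 9 to 9 with a median of 0.0074, and the members with the smallest p, Npas2 and Cry2, had 0.24 (SE 0.0894) and 0.26 (SE 0.106). Of 22 genes of the ATF4 and unfolded protein response 13 were positive, with a median of 0.03 that ran from -0.0136 (without 0.959 mg/kg replicate 6) to 0.0468 (without 9.59 mg/kg replicate 5), and 0 had an unadjusted p under 0.05 in either direction.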
